A study of Mus musculus with 8 samples.

Results

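Of the 8889 peaks that the authors listed for E2F3 in wild-type mouse embryonic fibroblasts, 3870 (43.5%, 42.5 to 44.6) overlapped no listed peak of HELLS in either genotype and no listed wild-type peak of H3K27me3. These E2F3-only sites were chosen by peak overlap of 1 bp or more, so their high E2F3 level and their low HELLS and wild-type H3K27me3 levels are part of the choice and are given as a description. The other 5019 E2F3 peaks fell into 4 classes. HELLS was listed in wild-type cells without H3K27me3 at 1211 of them (the co-bound class) and in E2f3-/- cells alone without H3K27me3 at 1976 (the null-only HELLS class). H3K27me3 was listed without HELLS at 831 and together with HELLS at 1001.

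E2F3 is a DNA-binding member of the E2F family, which acts with the retinoblastoma proteins to time the transcription of genes for DNA replication and cell division. HELLS, also called LSH, is an ATP-driven remodeller of the SNF2 family that is known for its role in DNA methylation and repressed chromatin. H3K27me3 is the methyl mark that Polycomb repressive complexes set on histone H3 at silent developmental genes.

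Fibroblasts came from E13.5 embryos and were either wild type or E2f3-/-, and the labels name no other allele, treatment or strain. Chromatin of each genotype was immunoprecipitated with 10 µg of an antibody to E2F3, to HELLS or to H3K27me3, and with IgG. Each of the 8 groups had 1 library, and the labels do not say how many embryos were pooled for it or whether E2f3 was deleted along its whole length. Every comparison is therefore between 2 libraries, no p-value can be given, and the 95% intervals cover counting error only.

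Distinct reads, 1 per position and strand, numbered 3799779 to 5640555 in the 6 ChIP libraries, with the lowest total in the E2f3-/- H3K27me3 library. The IgG files of both genotypes were byte for byte the same, with 7219419 distinct reads, and served as 1 background for all libraries. A false discovery rate over 5% was given by the authors to 2196 of 2489 wild-type HELLS peaks to 1140 of 3314 E2f3-/- peaks of the E2F3 antibody and to 4621 of 7079 E2f3-/- H3K27me3 peaks, and to 0 of the 8889 wild-type E2F3 peaks. Dropping such HELLS peaks from the choice would bring the E2F3-only sites to 4134. Ratios between libraries were scaled by the reads outside all peaks of the series, and a site was called higher or lower at 2-fold or more with an exact 95% interval that excluded 1.

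E2F3-only sites were narrow and of modest height. Their median width was 562 bp (quartiles 413 and 735), against 769 bp (572 and 998) at the other E2F3 peaks. The authors' score had a median of 102 (67.0 and 187), against 156 (87.5 and 304) at the others. The height of the read pileup at the summit had a median of 16, against 20. The class with H3K27me3 and no HELLS was narrower and weaker still, with medians of 526 bp, 82.1 and 12 for width, score and height. The classes with HELLS had median widths from 748 to 868 bp and median scores from 118 to 280. The E2F3-only sites made up 57.6% of the E2F3 peaks in the lowest quintile of scores and 26.9% in the highest, so they were more frequent among weak peaks without being confined to them. Of the 10 highest-scoring E2F3 peaks 3 were E2F3-only sites, as were 29 of the top 100 and 258 of the top 1000.

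In wild-type cells the E2F3 antibody stood well above every other library at these sites. The median site held 30 wild-type E2F3 reads (quartiles 17 and 48) and 8 E2f3-/- reads of the same antibody (4 and 14). It held 9 HELLS reads in wild-type cells (5 and 16), 10 in E2f3-/- cells (4 and 17), and 10 IgG reads (5 and 16). For H3K27me3 it held 7 reads in wild-type (3 and 12) and 1 in E2f3-/- cells (0 and 2). The HELLS and wild-type H3K27me3 counts thus lay near the IgG count before scaling, and the E2f3-/- H3K27me3 library was nearly empty, with 0 reads at 1424 of the 3870 sites. The wild-type E2F3 library had reads at every site, with 6 as the lowest count.

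After scaling, the median log2 enrichment over IgG was 2.30 for wild-type E2F3 and 0.54 for the same antibody in E2f3-/- cells. HELLS had 0.47 in wild-type and 0.46 in E2f3-/- cells, so the E2F3 antibody without E2f3 and the HELLS antibody gave about the same level. H3K27me3 had 0.07 in wild-type and -1.82 in E2f3-/- cells. At the co-bound class the HELLS medians were 1.43 and 1.53 and the E2f3-/- E2F3 median was 1.23. The E2F3-only sites were thus lower than co-bound sites in the E2f3-/- E2F3 library as well as in the HELLS libraries that the rule used.

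**Figure D1:**
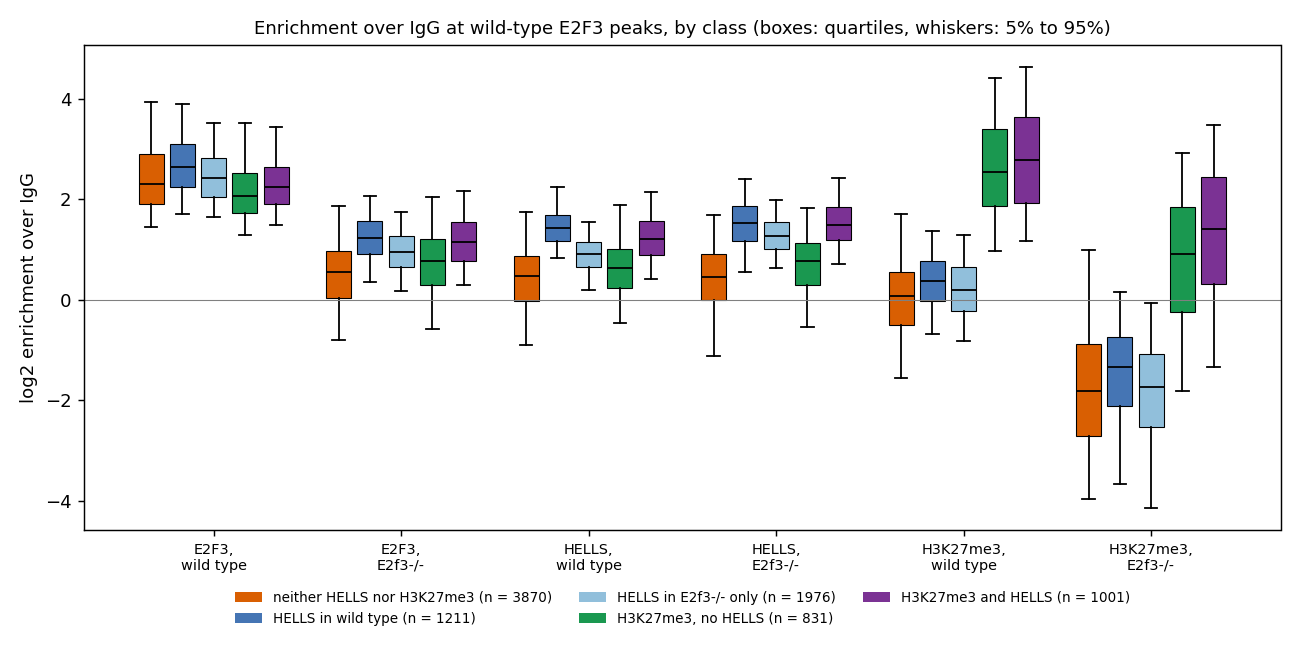
Log2 enrichment over IgG (y axis) of each of the 6 ChIP libraries (x axis) in the 5 classes of wild-type E2F3 peaks, with boxes for the quartiles, a line for the median and whiskers from the 5th to the 95th percentile of sites. At the E2F3-only sites (orange) wild-type E2F3 has a median of 2.30, the E2f3-/- E2F3 library and both HELLS libraries lie between 0.46 and 0.54, and the E2f3-/- H3K27me3 library lies at -1.82.

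Single sites were also called against IgG. Wild-type E2F3 reads were called above IgG at 3775 of the 3870 sites, or 97.5% (98.3% of all E2F3 peaks). E2f3-/- reads of the E2F3 antibody were called above IgG at 328, or 8.48% (27.9% of all). HELLS was above IgG at 232 sites in wild-type cells, or 5.99% (29.5% of all), and at 280 in E2f3-/- cells, or 7.24% (40.5% of all). H3K27me3 was above IgG at 188 sites in wild-type cells, or 4.86% (24.8% of all), and at 6 in E2f3-/- cells, or 0.155% (9.26% of all). The E2f3-/- H3K27me3 library was below IgG at 1191 sites, or 30.8%, close to its share of 28.9% over all E2F3 peaks. Calls below IgG were rare elsewhere. They came to 10 sites, or 0.258%, for the E2f3-/- E2F3 library (0.124% of all E2F3 peaks). For wild-type and E2f3-/- HELLS they came to 6 and 18 sites, or 0.155% and 0.465% (0.09% and 0.202% of all). For wild-type H3K27me3 they came to 52 sites, or 1.34% (0.945% of all). Depth sets how far these counts can be read. At the median of 10 IgG reads a HELLS library needed 17 reads to be called, above its medians of 9 and 10, so a smaller HELLS enrichment was not detectable at single sites.

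Summed over sites, where counting error is small, the HELLS libraries did lie above IgG. The scaled ratio to IgG was 1.37 (1.35 to 1.39) for wild-type HELLS and 1.41 (1.39 to 1.43) for E2f3-/- HELLS. The E2F3 antibody in E2f3-/- cells had 1.46 (1.44 to 1.48), and wild-type H3K27me3 1.09 (1.07 to 1.10). The scaled HELLS level was therefore slightly below that of the E2F3 antibody in cells without E2f3. Set directly against that library, wild-type HELLS had a ratio of 0.939 (0.926 to 0.952) and E2f3-/- HELLS of 0.965 (0.952 to 0.979). At the co-bound class the same ratios were 1.14 (1.13 to 1.16) and 1.27 (1.25 to 1.28), and at the null-only HELLS class 0.951 (0.939 to 0.963) and 1.25 (1.23 to 1.26). How much of the HELLS and E2f3-/- E2F3 reads at E2F3-only sites is specific to either protein was not tested.

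Read density around the E2F3 summit showed where these reads lay. Within 250 bp of the summit the wild-type E2F3 library was 27.2 times as dense as the genome outside peaks, the E2f3-/- E2F3 library 6.76 times, and wild-type and E2f3-/- HELLS 6.40 and 6.64 times. IgG itself was 4.53 times as dense there, and wild-type H3K27me3 4.86 times. The E2f3-/- H3K27me3 library reached 1.14 times (1.11 to 1.18), so the rise around the summit seen in IgG was nearly missing from it. At 2000 to 3000 bp from the summit the wild-type E2F3 library was at 1.41, IgG at 1.18, both HELLS libraries at 1.27 and 1.25, and the E2f3-/- H3K27me3 library at 0.876. At the co-bound class the central values were 46.3 for wild-type E2F3, 13.3 for the E2f3-/- E2F3 library, 15.9 and 17.6 for HELLS, and 5.19 for IgG. At the null-only HELLS class IgG was at 6.07 (5.99 to 6.15), above its value at the E2F3-only and co-bound sites.

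**Figure D2:**
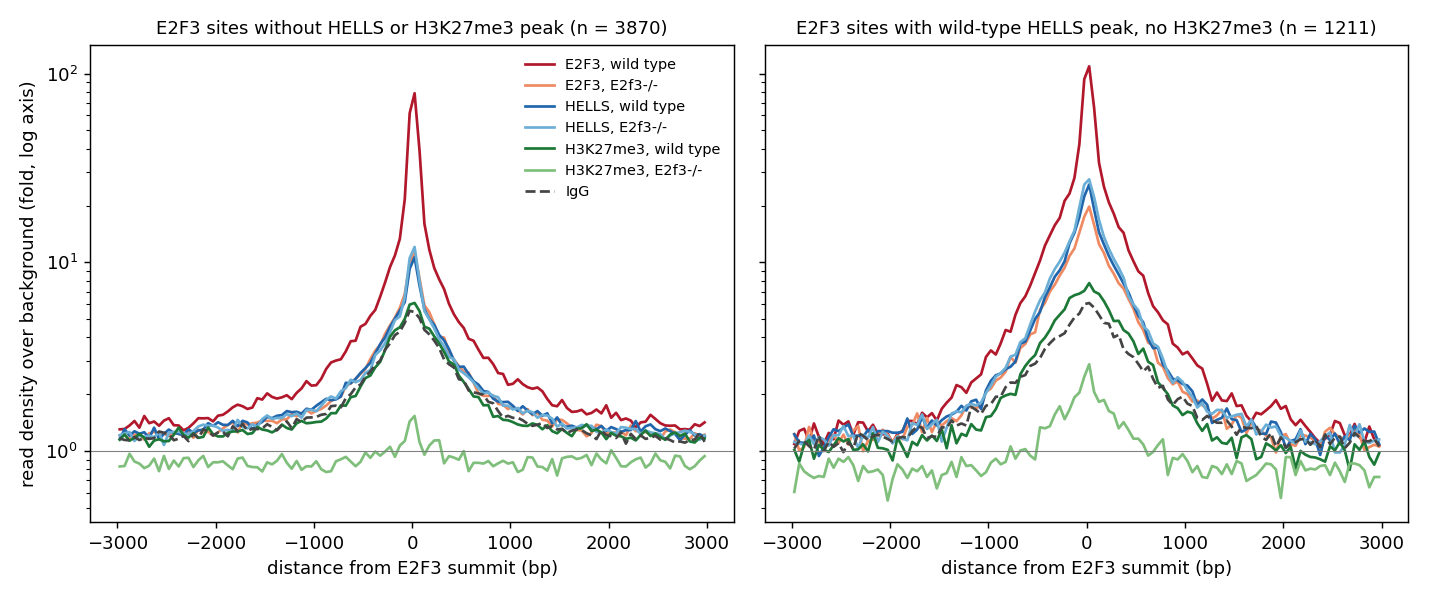
Read density over the level outside peaks (y axis, log scale) by distance from the E2F3 summit in bp (x axis), in 50 bp bins, for the 6 ChIP libraries and IgG at the 3870 E2F3-only sites (left) and the 1211 co-bound sites (right). On the left the 2 HELLS lines and the E2f3-/- E2F3 line run together a little above IgG (dashed), while on the right they stand clear of it; the E2f3-/- H3K27me3 line is the lowest in both.

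Loss of E2f3 was measured with the E2F3 antibody, as the ratio of E2f3-/- to wild-type reads. The E2F3-only sites held 142231 wild-type and 37049 E2f3-/- reads in all, a scaled ratio of 0.271 (0.268 to 0.274). The median log2 ratio over sites was -1.83 (quartiles -2.46 and -1.31), and 3034 sites (78.4%) were lower and 0 higher, beside 73.3% and 0% of all E2F3 peaks. The other classes had medians of -1.44 (co-bound), -1.47 (null-only HELLS), -1.33 (H3K27me3 alone) and -1.07 (H3K27me3 with HELLS). The sites were listed because the wild-type E2F3 library was high there, so this contrast uses the same reads as the choice of the sites. When the libraries were scaled to the median of E2F3 peaks listed in both genotypes, every log2 ratio moved by 1.20. The median at E2F3-only sites was then -0.63, with 834 sites lower and 13 higher. Of the 2512 wild-type E2F3 peaks that overlapped an E2f3-/- peak, 269 were E2F3-only sites. The share called over all E2F3 peaks is not given under this scaling, so these counts are a description.

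**Figure D3:**
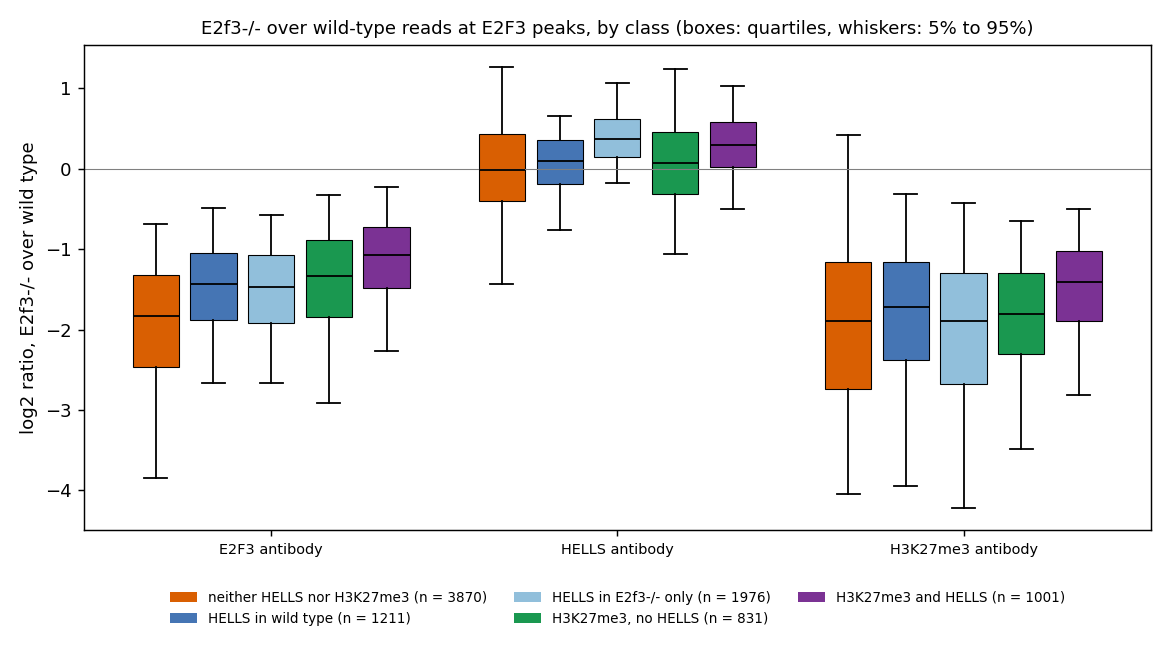
Log2 ratio of E2f3-/- to wild-type reads (y axis) for the E2F3, HELLS and H3K27me3 antibodies (x axis) in the 5 classes of wild-type E2F3 peaks, with boxes for the quartiles and whiskers from the 5th to the 95th percentile. The E2F3-only sites (orange) have the lowest median for E2F3 (-1.83), a median at about 0 for HELLS, and a median of -1.90 for H3K27me3, within the range of the other classes.

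The authors' E2f3-/- list for the E2F3 antibody reached few of these sites. A listed E2f3-/- peak overlapped 269 of the 3870 (6.95%, 6.17 to 7.80), beside 28.3% of all wild-type E2F3 peaks. The share was 54.9% (52.1 to 57.7) at the co-bound class, 53.6% (51.4 to 55.8) at the null-only HELLS class and 44.2% (41.1 to 47.3) where H3K27me3 and HELLS were both listed. It was 9.27% (7.38 to 11.4) at the sites with H3K27me3 and no HELLS, whose interval overlapped that of the E2F3-only sites. Both classes without a HELLS peak thus had the low shares. The rule had removed sites with an E2f3-/- HELLS peak. At the sites left, E2f3-/- HELLS density correlated with E2f3-/- E2F3 density at 0.687 (Spearman). A low share can therefore be partly built into the choice, and it is given as a description. The 266 E2f3-/- peaks that lay on E2F3-only sites had a median score of 61.9, against 70.5 for all E2f3-/- E2F3-antibody peaks, and 134 of them had a false discovery rate over 5%.

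The difference in that share was present at every level of E2F3 score. Each quintile keeps the same choice by HELLS and H3K27me3 peaks, so the quintiles are a description too. In the lowest quintile of scores an E2f3-/- peak lay on 4.39% (3.22 to 5.83) of the E2F3-only sites and on 26.5% (23.3 to 29.8) of the other E2F3 peaks. In the highest quintile it lay on 10.7% (8.05 to 13.8) and 59.3% (56.6 to 62.0). The median log2 ratio of E2F3 reads was lower at E2F3-only sites in every quintile, from -1.60 against -0.92 in the lowest to -2.62 against -1.86 in the highest. Sorting the peaks by IgG density gave the same direction in each quintile. In the quintile with the densest IgG the median ratios were -1.58 and -1.29, and the E2f3-/- peak shares were 6.22% and 42.8%. E2F3-only sites also held fewer IgG reads (median 10) than the other E2F3 peaks (median 16), and the part of width, depth and shared background in these differences was not tested.

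**Figure D4:**
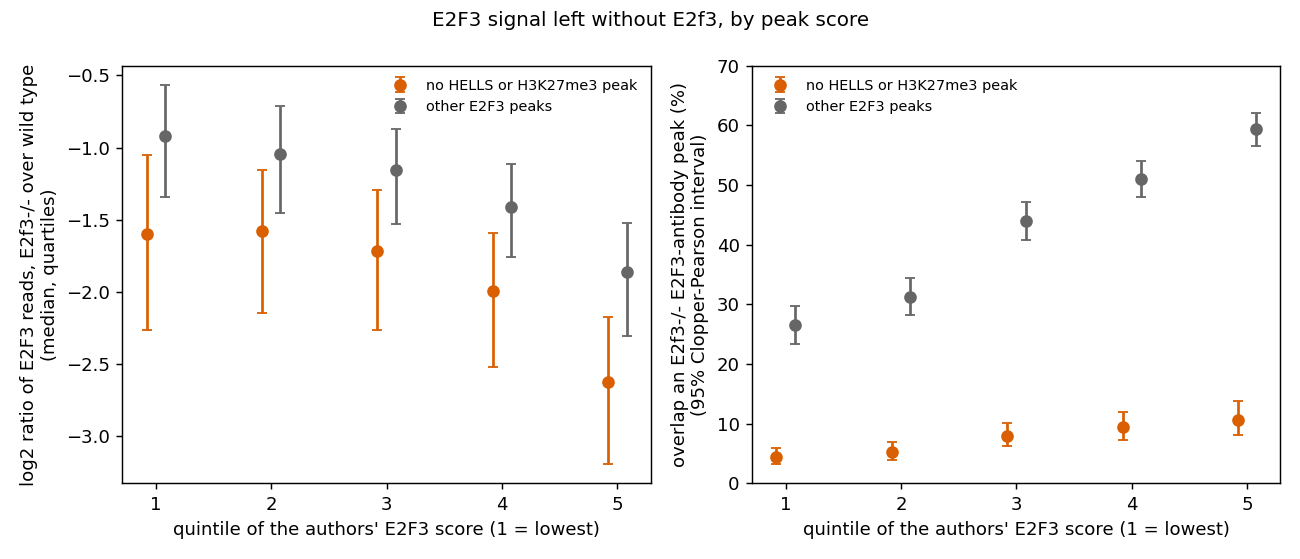
Left, median log2 ratio of E2f3-/- to wild-type E2F3 reads with quartiles (y axis), and right, percent of peaks that overlap an E2f3-/- peak of the E2F3 antibody with its 95% interval (y axis), by quintile of the authors' E2F3 score (x axis). E2F3-only sites (orange) lie below the other E2F3 peaks (grey) in all 5 quintiles of both panels, at 4.39% against 26.5% in the lowest and 10.7% against 59.3% in the highest quintile on the right.

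Within the E2F3-only sites, the 269 with an E2f3-/- peak and the 3601 without one were compared as the rule splits them. Sites with the peak were wider (median 680 against 551 bp) and had higher wild-type scores (136 against 100.0). They held a median of 45 wild-type and 19 E2f3-/- E2F3 reads, against 29 and 7 at the sites without it. The E2F3 log2 ratio had a median of -1.14 with the peak and -1.87 without, and 160 (59.5%) and 2874 (79.8%) sites were lower, beside 73.3% of all E2F3 peaks. The split used the E2f3-/- E2F3 library, so this difference follows from it. The HELLS libraries were not used by the split, although the rule used them to choose the sites. In them the 269 sites held 1.66 (1.59 to 1.73) and 1.63 (1.56 to 1.70) times the IgG level in wild-type and E2f3-/- cells. The 3601 held 1.34 (1.32 to 1.36) and 1.39 (1.37 to 1.41). HELLS was called above IgG at 47 of the 269 (17.5%) and 185 of the 3601 (5.14%) in wild-type cells, beside 29.5% of all E2F3 peaks. In E2f3-/- cells it was called at 35 (13.0%) and 245 (6.80%), beside 40.5% of all. Sites with the peak also held more IgG reads (median 14 against 10). Over all E2F3-only sites E2f3-/- HELLS density rose with E2f3-/- E2F3 density (Spearman correlation 0.687). The part of width, depth and shared background in the HELLS difference was not tested. The H3K27me3 ratio of E2f3-/- to wild-type reads was 0.219 and 0.222.

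HELLS reads at E2F3-only sites hardly differed between the genotypes. The rule removed every peak with a HELLS peak in either genotype, so a small difference is partly built into the choice. Over all E2F3 peaks the scaled ratio was 1.16. The sites held 42960 wild-type and 44467 E2f3-/- HELLS reads, a scaled ratio of 1.03 (1.01 to 1.04). The median log2 ratio was -0.0099 (quartiles -0.40 and 0.44), with 35 sites (0.904%) lower and 48 (1.24%) higher, beside 0.641% and 2.38% of all E2F3 peaks. The ratio was 1.11 (1.09 to 1.12) at the co-bound class and 1.31 (1.29 to 1.32) at the null-only HELLS class, which was picked for E2f3-/- HELLS peaks. Scaling to the median of HELLS peaks listed in both genotypes moved log2 ratios by -0.13 and gave 65 lower and 28 higher E2F3-only sites, so the balance of the few calls turned with the scaling. Under that scaling the share over all E2F3 peaks is not given. A site with the median of 9 wild-type HELLS reads could be called lower only with 1 or 0 E2f3-/- reads. Across the 3870 sites the Spearman correlation between the HELLS and E2F3 log2 ratios was 0.033, a description over sites that share libraries and a shallow depth.

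H3K27me3 reads were few at these sites in both genotypes and fewer in the E2f3-/- library. The sites held 32079 wild-type and 5306 E2f3-/- reads, a scaled ratio of 0.222 (0.216 to 0.229). The median log2 ratio was -1.90 (quartiles -2.74 and -1.16), with 1200 sites (31.0%) lower and 0 higher, beside 48.7% and 0% of all E2F3 peaks. Medians in the other 4 classes ran from -1.90 to -1.41, which places the E2F3-only sites at the low end of the range. Wild-type H3K27me3 reads at E2F3-only sites were 1.09 times the IgG level and E2f3-/- reads 0.242 times (0.235 to 0.249), which puts the E2f3-/- library under IgG where no mark was listed. At the classes with an H3K27me3 peak the E2f3-/- reads were 2.23 (alone) and 3.45 (with HELLS) times IgG. Scaling to the median of shared H3K27me3 peaks moved log2 ratios by 1.05, which left a median of -0.85 with 253 sites lower and 7 higher. No share over all E2F3 peaks is given under that scaling.

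The E2f3-/- H3K27me3 list was not part of the rule, but 4621 of its 7079 peaks had a false discovery rate over 5%. The rule had already removed sites with a wild-type H3K27me3 peak. The median site also held 1 read of this library, where 13 were needed for a call over 10 IgG reads. A low overlap was therefore partly built in, and it is given as a description. A peak of that list overlapped 2 of the 3870 sites (0.0517%, 0.00626 to 0.187), beside 9.19% of all E2F3 peaks. The label of the sites as never called for H3K27me3 therefore holds for the wild-type list and fails at these 2 sites in the E2f3-/- list. The share was 30.7% (27.6 to 33.9) and 55.0% (51.9 to 58.2) at the classes with a wild-type H3K27me3 peak, and 0.330% (0.0901 to 0.844) and 0.253% (0.0822 to 0.590) at the classes with HELLS alone. One of the 2 sites lay on chromosome X from 91479771 to 91480673 (mm9), with 36 wild-type and 14 E2f3-/- H3K27me3 reads and 13 IgG reads. It also held 45 and 20 E2F3 reads and 20 and 17 HELLS reads. The other lay on chromosome 10 from 21869322 to 21869619, 9 bp from a listed HELLS or wild-type H3K27me3 peak, with 8 and 6 H3K27me3 reads and 2 IgG reads.

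The strongest E2F3-only sites show these levels site by site (all positions in mm9). The highest score of all E2F3 peaks, 2617, belonged to an E2F3-only site on chromosome 4 (82158835 to 82159411) without an E2f3-/- E2F3 peak. Its 220 wild-type E2F3 reads stood beside 13 and 18 HELLS reads in wild-type and E2f3-/- cells, 10 and 1 H3K27me3 reads, and 13 reads each of IgG and of the E2F3 antibody in E2f3-/- cells. The wild-type E2F3 level was 27.8 times that of IgG (15.9 to 53.1), while the interval of every other library over IgG included 1. Among the 5 highest-scoring sites without an E2f3-/- peak, wild-type E2F3 reads ran from 122 to 230 (median 194) and E2f3-/- reads from 4 to 28 (median 13). For HELLS the range was 2 to 24 wild-type reads and 10 to 24 E2f3-/- reads, IgG reads from 7 to 18, and H3K27me3 reads from 2 to 10 and 0 to 2. The wild-type E2F3 range lay above the range of every other library, and all 5 sites were lower for E2F3, with ratios between 0.0341 and 0.171. Both follow from a pick by high wild-type E2F3 score. In the highest quintile of scores 99.6% of E2F3-only sites and 98.0% of the other E2F3 peaks were lower, beside 73.3% of all.

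The site on chromosome 2 from 121781432 to 121781866 was the only one of those 5 with a HELLS call. It held 2 wild-type and 13 E2f3-/- HELLS reads (scaled ratio 6.46, 1.46 to 58.9) with 7 IgG reads, and its E2f3-/- HELLS level over IgG was 2.55 (0.947 to 7.56). The HELLS interval against IgG included 1, so the call rests on the low wild-type count. The site on chromosome 10 from 90643936 to 90644919, with a score of 2363, kept the most E2F3-antibody signal of the 5. It held 170 wild-type and 28 E2f3-/- reads, and the E2f3-/- level was 3.19 times IgG (1.65 to 6.43) although no E2f3-/- peak was listed there.

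The 5 sites without an E2f3-/- peak were picked from 3601 sites and had scores from 1882 to 2617. The 5 highest-scoring sites with an E2f3-/- E2F3 peak, picked from 269, had scores from 1048 to 2021, so the score ranges overlapped. Their wild-type E2F3 reads ran from 125 to 160 (median 150) and their E2f3-/- reads from 13 to 25 (median 17), and the 2 ranges did not overlap. All 5 were lower, with ratios between 0.102 and 0.173, at sites picked for a high wild-type level. The first of them lay on chromosome 6 from 85537270 to 85537700 and held 125 and 13 E2F3 reads, 5 and 7 HELLS reads and 1 and 0 H3K27me3 reads. It held 0 IgG reads, so no fold over IgG is given for it. Another, on chromosome 17 from 35378440 to 35379147, held 151 and 20 E2F3 reads, 18 and 17 HELLS reads and 9 IgG reads. Its HELLS level was 2.77 (1.18 to 6.99) and 2.60 (1.09 to 6.61) times IgG, above 1 in both genotypes without a listed HELLS peak. It was not alone in this. The HELLS interval over IgG also lay above 1 in both genotypes at the sites on chromosomes 4, 6 and 7. On chromosome 4 the wild-type bound was barely above 1. Only at the site on chromosome 5 did the interval include 1, in both genotypes.

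**Figure D5:**
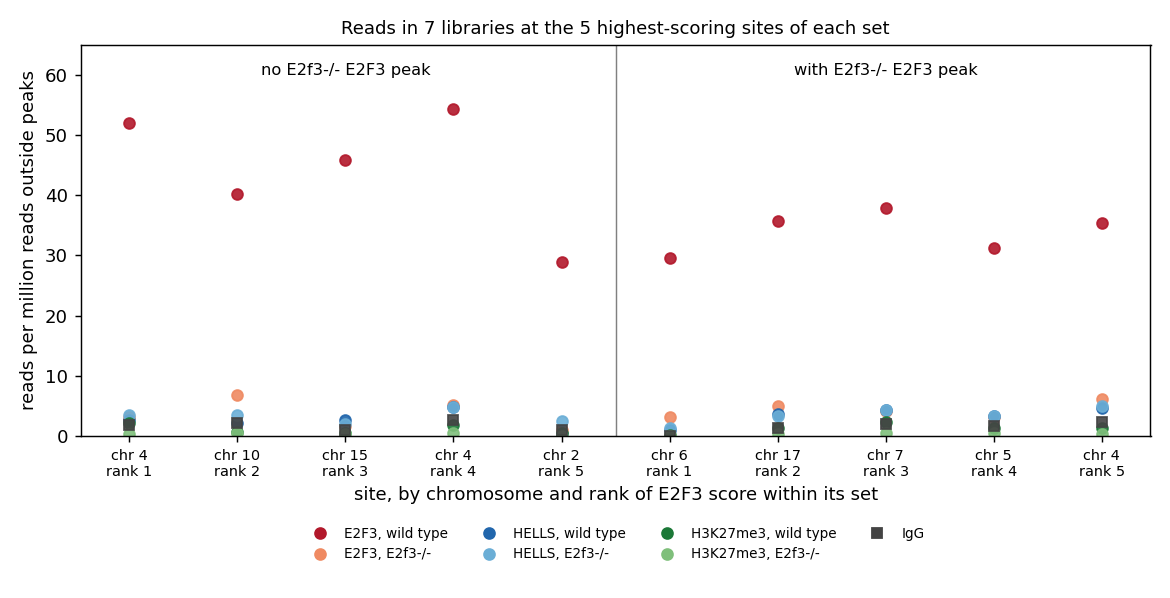
Read counts scaled by each library's reads outside peaks (y axis) in 7 libraries at the 5 highest-scoring E2F3-only sites without an E2f3-/- E2F3 peak (left) and the 5 with one (right), named by chromosome and rank of score (x axis), 1 point per library and site with no replicate. Wild-type E2F3 (dark red) stands far above the other 6 libraries at all 10 sites, which were picked for a high wild-type E2F3 score.

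Ranked by the log2 ratio with 0.5 added to both counts, the 3 sites with the largest falls of E2F3 reads had 0 E2f3-/- reads. With a floor of 3 counts their bounds are smaller than the 29.3-fold and 26.7-fold falls at 2 of the highest-scoring sites, on chromosome 2 (122 to 4 reads) and chromosome 15 (194 to 7). On chromosome 11 from 68821675 to 68822158 the 54 wild-type reads fell to 0, which is at least 17.3-fold lower with the E2f3-/- count at its floor of 3. HELLS held 3 and 7 reads there, H3K27me3 5 and 1, and IgG 6. The other 2 had 41 wild-type reads (chromosome 11, 94183211 to 94183563) and 34 (chromosome 8, 59989908 to 59990651), at least 13.2-fold and 10.9-fold lower. HELLS was called at neither site, with 7 and 7 reads at the former and 6 and 10 at the latter. Since 0 sites were called higher, no site was named for a rise.

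Sites named for the most HELLS over IgG held few IgG reads. In E2f3-/- cells the leading site lay on chromosome 4 from 106500423 to 106500955, where 14 HELLS reads stood against 2 of IgG (ratio 9.62, 2.21 to 87.2) and wild-type cells had 7 HELLS reads. The chromosome 6 site with 0 IgG reads came next, followed by a site on chromosome 4 from 11413069 to 11413468 with 10 HELLS reads and 1 IgG read. In wild-type cells the leading site lay on chromosome 19 from 42593009 to 42593341, with 14 HELLS reads and 2 IgG reads, a ratio of 9.69 (2.23 to 87.8). Its E2f3-/- HELLS library held 4 reads, and it was called lower (ratio 0.284, 0.0680 to 0.904). It was picked for a high wild-type HELLS level, so this call uses the reads that chose it. HELLS was called lower at 0.904% of E2F3-only sites and 0.641% of all E2F3 peaks. The next 2 held 15 and 6 HELLS reads (chromosome 6, 113187478 to 113188200, 3 IgG reads) and 20 and 9 (chromosome 5, 77738741 to 77739218, 6 IgG reads). Neither was called between the genotypes, and all 3 had wild-type E2F3 reads between 21 and 33.

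For H3K27me3 over IgG, 3 of the 6 named sites lay on the X chromosome, which carries 82 of the 3870 E2F3-only sites. In wild-type cells the leading sites had 11 H3K27me3 reads and 1 IgG read (chromosome 10, 99479053 to 99479263), 36 and 13 (the X site with an E2f3-/- H3K27me3 peak) and 10 and 1 (X, 70704136 to 70704612). In E2f3-/- cells they had 6 and 1 (chromosome 13, 9198722 to 9199055), 12 and 6 (X, 156828392 to 156828809) and 4 and 0 (chromosome 9, 14519838 to 14520105). The X-linked sites as a set had a median log2 H3K27me3 enrichment over IgG of 1.21 in wild-type and 0.19 in E2f3-/- cells, against 0.07 and -1.82 at the autosomal sites. Their H3K27me3 ratio between genotypes had a median of -1.10, against -1.90 on autosomes. Reads outside peaks also differed on the sex chromosomes. E2f3-/- over wild-type levels on X were 1.18, 1.22 and 1.55 for E2F3, HELLS and H3K27me3, on Y 0.466, 0.492 and 0.508, and on single autosomes between 0.902 and 1.06. The part of this in the X-linked values was not tested.

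E2F3-only sites were spread over the genome. Their share of E2F3 peaks was highest on chromosome 7, at 326 of 628 (51.9%, 47.9 to 55.9), and lowest among autosomes on chromosome 1, at 205 of 512 (40.0%, 35.8 to 44.4). Another E2F3 peak lay within 1000 bp of 404 of them (10.4%), beside 9.37% of all E2F3 peaks. Distances to listed HELLS and H3K27me3 peaks are a description, because they were not measured per list for the other E2F3 peaks. The rule excludes overlap with the HELLS and wild-type H3K27me3 lists. The lists also differ in size, with 2489 and 4740 HELLS peaks and 17064 and 7079 H3K27me3 peaks in wild-type and E2f3-/- cells. The nearest wild-type HELLS peak was at a median of 157 kb, the nearest E2f3-/- HELLS peak at 78.0 kb, and the nearest wild-type and E2f3-/- H3K27me3 peaks at 65.1 and 164 kb. A wild-type H3K27me3 peak lay within 1 kb of 91 sites (2.35%) and an E2f3-/- HELLS peak within 1 kb of 145 (3.75%).

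The sites nearest the edge of the rule, on both sides of it, held few reads. The 3 E2F3-only sites closest to an excluding peak, at gaps of 9, 10 and 10 bp, held 8 to 12 wild-type E2F3 reads and 1 to 6 E2f3-/- reads. The 3 excluded E2F3 peaks with the smallest overlap, of 1, 1 and 4 bp, all with H3K27me3, held 16 to 18 and 5 to 7. Their wild-type H3K27me3 reads were 2, 14 and 18, against 8, 5 and 4 at the nearest included sites. At the lower end of the score, 50.01 to 50.1, the 3 weakest E2F3-only sites held 12, 18 and 9 wild-type E2F3 reads, 4, 0 and 0 E2f3-/- reads, and 7, 10 and 1 IgG reads. Their wild-type E2F3 level over IgG was 2.82 (1.02 to 8.45), 2.96 (1.30 to 7.18) and 14.8 (2.05 to 649).

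Read density at E2F3-only sites followed IgG density in most libraries. Across the 3870 sites the Spearman correlation with IgG density was 0.636 for wild-type HELLS, 0.653 for E2f3-/- HELLS, 0.626 for E2f3-/- E2F3, 0.544 for wild-type E2F3 and 0.510 for wild-type H3K27me3. For E2f3-/- H3K27me3 it was 0.147. E2f3-/- HELLS density correlated with the E2F3 antibody in the same cells at 0.687 and with wild-type HELLS at 0.701, and wild-type HELLS with wild-type E2F3 at 0.457. These values describe sites that share libraries, widths and local background, and sites are not replicates.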

How the data were processed

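ChIP-seq libraries of wild-type and E2f3-/- fibroblasts were grouped by genotype and antibody from the labels. Reads were deposited as aligned positions on mm9, per the submitters' processing notes, and the aligner is not given in the sources used here. The authors called peaks per library with MACS 1.4.0beta against IgG at a p cutoff of 1e-05, per the file headers. The deposited peak tables give tag counts, a score (10 times −log10 of the p-value), a fold enrichment as a ratio, and the false discovery rate as a percent. Summit heights are the unscaled pileup signal, as deposited. The headers of the peak lists name IgG controls of 3444066 and 3791438 tags, while both deposited IgG files hold the same reads.

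From these files 1 read per 5' position and strand was kept, moved by 60 bp towards the fragment centre and counted in each wild-type E2F3 peak (Python 3.11.15, numpy 2.4.6, scipy 1.17.1). Libraries were scaled by distinct reads outside the 27089 merged peak regions of the series (21.5 Mb). Ratios carry exact conditional binomial intervals, shares Clopper-Pearson intervals and density windows exact Poisson intervals, all at 95%. Log2 values had 0.5 added to both counts. Density was set against the reads outside peaks over the 1.87 Gb that the headers name as effective genome. The calls were tested on simulated counts, where many falls in H3K27me3 were missed at this depth. Sites and classes were chosen with earlier results of these data known.

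Sites were named by rank: the 5 highest scores with and without an E2f3-/- E2F3 peak, the 3 largest called falls and rises of E2F3 reads, the 3 highest in each HELLS and H3K27me3 library over IgG by the lower bound of the interval, the 3 lowest scores, and the 3 sites nearest the edge of the rule on either side. The 2 sites with an E2f3-/- H3K27me3 peak were named after their values were seen. Alternatives were counting repeated reads too, scaling by all reads or by shared peaks, a 1.5-fold threshold, a 500 bp summit window, other score, overlap and distance limits, a pseudocount of 1, autosomes alone and, added after the data were seen, a false discovery rate limit of 5% on HELLS peaks. Sequence motifs and gene annotation were not analysed here, because the reference tables used a different build.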

Additional observations from a re-analysis of the deposited data

How the results depend on the processing

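No paired analysis was possible because each group had 1 library, which also leaves no replicate to leave out. Of 177 values computed under alternatives 129 stayed within the limits set and 48 moved, and the cause was not tested. Called values kept their sign, but 3 small medians changed sign: HELLS between genotypes (2 alternatives) and wild-type H3K27me3 over IgG (1). Scaling by all distinct reads gave log2 ratios of -1.74 (E2F3), -0.016 (HELLS) and -1.75 (H3K27me3), and enrichments over IgG of 2.18, 0.52, 0.44, 0.43, -0.13 and -1.88 for wild-type and E2f3-/- E2F3, HELLS and H3K27me3 in that order. Scaling to shared peaks gave medians of -0.63, -0.14 and -0.85, with 834, 65 and 253 lower and 13, 28 and 7 higher. It removes any change common to those peaks. Shares of all E2F3 peaks called are not given under the alternatives, so the counts here are a description. With E2F3 peaks of score 100 or more there were 1981 sites, 9.09% with an E2f3-/- E2F3 peak. Their medians were -2.04 (E2F3) and 0.044 (HELLS), with 1862, 15 and 741 lower and 29 higher for HELLS. Enrichments were 2.58 and 0.59 (E2F3), 0.56 (E2f3-/- HELLS), 0.038 and -1.96 (H3K27me3). With HELLS and H3K27me3 peaks of score 100 or more as the only excluding ones there were 5918 sites, 15.8% with an E2f3-/- E2F3 peak. Their medians were -1.70 (E2F3) and 0.075 (HELLS), with 4557, 53 and 2344 lower and 100 HELLS sites higher. Enrichments were 0.70 (E2f3-/- E2F3), 0.63 and 0.73 (HELLS), 0.20 and -1.68 (H3K27me3). The summit window gave 2.36 for wild-type E2F3, and a pseudocount of 1 gave 2.27, 0.12 and -1.34 for wild-type E2F3, wild-type H3K27me3 and E2f3-/- H3K27me3. Depth limits H3K27me3 most: with 7 wild-type reads, the median, only 0 E2f3-/- reads made a call.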
